A study of Mus musculus with 4 samples.

Results

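Tgfbr2 encodes the type II receptor of transforming growth factor beta, and 2 Ago2-bound features of it were listed among 2548 features of 1848 genes. The features were chosen by the gene name in the authors' deposited table and ranked by their mean over all libraries, so rank and mean below are descriptions and were not tested. The major feature, with a deposited mean of 424.1 normalized reads, ranked 5 of 2548. The minor feature, at 21.0 normalized reads, ranked 365. Both carried the Entrez identifier 21813. Neither coordinates nor a sequence of either feature were used here, so their places in the transcript are not given.

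The cells were B cell progenitors from mouse fetal liver at embryonic day 14.5, on a C57BL/6 background, transformed in culture with a retrovirus coding for the Abelson kinase. Lines of 2 genotypes were compared, wild type and Bim3'UTRmut/mut, with 2 libraries each that the labels call biological replicates; every line carried the Abelson kinase. Ago2, the Argonaute protein that holds microRNAs on their targets, was precipitated after labelling with 500 µM 4-thiouridine for 5 hours and crosslinking at 365 nm (PAR-CLIP), and the RNA fragments that came down with it were sequenced. The question was how Ago2 binding changes with a mutated 3' UTR of Bim, a protein that promotes apoptosis.

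TGF-beta signals through a complex of type I and type II receptors. The type II receptor binds the ligand and phosphorylates the type I receptor, which then activates SMAD proteins that enter the nucleus and regulate transcription. In B cell progenitors the pathway is known to restrain proliferation. MicroRNAs of the miR-17 cluster and its relatives are known to repress Tgfbr2, and Bim is another of their known targets. A microRNA recognises its target mainly through its seed, bases 2 to 8 from the 5' end.

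The mature microRNAs of the miR-17, miR-106a and miR-106b clusters are shown because members of the miR-17 family are known regulators of Tgfbr2. All 13 were found in RefSeq (GRCm38.p6), and the seed is in capitals. They share 4 seeds. The following 6, with the seed AAAGUGC, form the miR-17 family, whose perfect match in an mRNA reads GCACUUU.
mmu-miR-17-5p: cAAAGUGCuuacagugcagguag
mmu-miR-20a-5p: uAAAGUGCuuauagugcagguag
mmu-miR-106a-5p: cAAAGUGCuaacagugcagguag
mmu-miR-20b-5p: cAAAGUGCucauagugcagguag
mmu-miR-106b-5p: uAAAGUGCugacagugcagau
mmu-miR-93-5p: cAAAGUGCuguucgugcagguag
Counted from the 5' end, miR-106a-5p differed from miR-17-5p by 1 base (U10A) and miR-20a-5p by 2 (C1U and C12U). The other seeds of the clusters are shown by 1 microRNA each: the seed AAGGUGC occurs in 2 of the 13, GUGCAAA in 2 and AUUGCAC in 3.
mmu-miR-18a-5p: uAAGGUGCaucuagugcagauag
mmu-miR-19a-3p: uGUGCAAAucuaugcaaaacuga
mmu-miR-92a-3p: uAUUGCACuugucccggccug
The Tgfbr2 features carry no microRNA name, so which of these seeds they match was not analysed here.

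The table holds no values per library, but whole reads could be recovered from the deposited means (see the processing below). The libraries are called Wa and Wb where they lay on the wild-type side of the comparison, and Ma and Mb where they lay on the mutant side. Which numbered replicate each is remains unknown. Reads in listed features ranged from 14539 in Mb to 160207 in Wa, so 1 read is worth 2.21 normalized reads in Mb and 0.272 in Wa. Library Mb stood apart from the rest. Of 17 B lineage marker genes, 7 had features in the table (Ikzf1, Irf4, Bach2, Syk, Rag1, Il7r and Bcl11a), and their 10 features summed to between 169.0 and 192.6 normalized reads in Wa, Wb and Ma but to 4.42 in Mb, where 8 of the 10 were at 0. Of 6 stromal markers, 2 were listed, Vim and Pdgfra. Their 4 features summed to between 4.08 and 9.71 in the other libraries, all of it at Vim, and to 201.2 in Mb. Every listed feature had at least 5 reads in its highest library. The Pdgfra features had 26, 11 and 7 reads in Mb and 0 elsewhere, so they were listed through Mb alone. Their excess there was thus fixed by the listing, as for every feature below that was read in Mb alone. Features at 0 in Mb were likewise listed through other libraries. No hepatocyte, erythroid or myeloid marker of the 4 looked for in each class was listed. Values without Mb are therefore given with the results that rest on it; the part of these markers in any result was not tested. In pooled cultures, fewer cells of a type and less RNA per cell cannot be told apart, and without RNA levels more Ago2 on a transcript and more of the transcript cannot be told apart either.

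Scaled by the size factors, Ago2 reads at the major Tgfbr2 feature spanned 1.28-fold over the 4 libraries. As a share of all reads in listed features they spanned 1.55-fold. Reads numbered 1336 (Wa), 500 (Wb), 288 (Ma) and 184 (Mb). Divided by the size factors, these came to 363.1 normalized reads in Wa (exact 95% Poisson interval 343.8 to 383.1), 460.6 in Wb (421.1 to 502.8), 466.1 in Ma (413.9 to 523.2) and 406.8 in Mb (350.1 to 470.0). The groups overlapped: Mb lay between the 2 wild-type libraries, and Ma lay 1.28-fold above Wa, the lowest. The intervals of Wa and Wb did not meet. They cover counting error only and treat reads as separate molecules. Group means were 411.8 ± 69.0 normalized reads (SD, n = 2) for wild type and 436.5 ± 42.0 (SD, n = 2) for the mutant. In the authors' deposited table mutant over wild type stood at a log2 fold change of 0.081, with a standard error of 0.60, a 95% interval from -1.10 to 1.26 and an unadjusted p of 0.892. The difference was smaller than the spread between replicates, but its interval reaches beyond a doubling in either direction. Its sign was not stable: limma's voom gave -0.12 when scaled by TMM and -0.081 without Wa.

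The minor feature was lower in both mutant libraries than in both wild-type libraries, without passing the test. Library Wa gave 87 reads, Wb 34, Ma 11 and Mb 5. After normalization the level was 23.6 in Wa (interval 18.9 to 29.2), 31.3 in Wb (21.7 to 43.8), 17.8 in Ma (8.89 to 31.9) and 11.1 in Mb (3.59 to 25.8). The groups did not overlap in value, yet the intervals of Ma and Mb reached into the wild-type range. Group means were 27.5 ± 5.43 (SD, n = 2) and 14.4 ± 4.77 (SD, n = 2). The authors' deposited table put it at -0.84 (log2 fold change), with a standard error of 0.78, a 95% interval from -2.37 to 0.69 and an unadjusted p of 0.282. This order of the 4 libraries, mutant below wild type, held in 20.1% of all features and in 24.8% of those with a mean of 20 or more, so it is common in this table. Without Mb, limma's voom fitted to recovered reads gave the minor feature -0.53 (standard error 0.75) and the major feature 0.20 (standard error 0.56), with the lone Ma assumed to vary like the wild-type libraries.

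**Figure D1:**
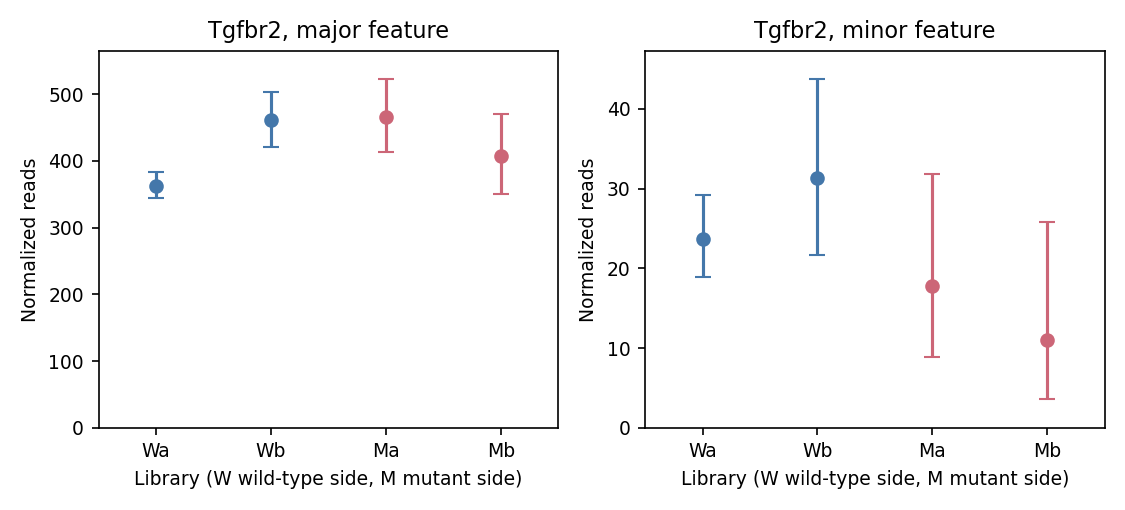
Normalized reads (y axis, from 0, different scales) of the major (left) and minor (right) Tgfbr2 feature in each library, wild-type side in blue and mutant side in red; bars are exact 95% Poisson intervals for counting error. The major feature lies between 363.1 and 466.1 in all 4 libraries, while the minor feature ranges from 11.1 in Mb to 31.3 in Wb with wide intervals.

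Neither Tgfbr2 feature passed an adjusted p of 0.05, and nor did any feature of the table. After Benjamini-Hochberg adjustment of the authors' DESeq2 p-values over all features, both Tgfbr2 features had an adjusted p of 1.00, and 0 of 2548 features (0%) passed. In the authors' deposited table, 216 features, or 8.48%, had an unadjusted p under 0.05, and Tgfbr2 had none of them. Of the 216, 193 were higher in the mutant (7.57% of all features) and 23 lower (0.903%). Voom on the recovered reads also passed 0 at an adjusted p of 0.05, with 79 features at an unadjusted p under 0.05. Without Ma, when Mb alone stood for the mutant, voom passed 356 features, neither of them in Tgfbr2. The deposited log2 values give no order of size among features read almost wholly in 1 library: in the authors' deposited table Thbs1, with 78 reads in Mb alone, had 1.25, and Smurf1, with 8 reads in Mb alone, had 3.00.

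The minor feature took a small part of the gene's Ago2 reads, and a smaller part on the mutant side. Its share of all Tgfbr2 reads was 6.11% in Wa (95% Wilson interval 4.98 to 7.48), 6.37% in Wb (4.59 to 8.77), 3.68% in Ma (2.07 to 6.47) and 2.65% in Mb (1.14 to 6.04). The shares of the 2 groups did not overlap, but the interval of each mutant library overlapped those of both wild-type libraries. How often the shares of other genes part in this way was not counted, so the gap is a description only. The mean share was 6.24% ± 0.179 (SD, n = 2) for wild type and 3.16% ± 0.731 (SD, n = 2) for the mutant. An exact two-sided permutation test over the 4 libraries gave p = 0.333. That is the smallest p that 2 libraries against 2 allow, so the test could not decide whether the shares differ. The major feature's mean was 20.2 times the minor's. Among the 334 genes with exactly 2 features, the median fold between the higher and the lower was 2.97, and 27 genes had a larger fold than Tgfbr2.

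Few features were as even as the major Tgfbr2 feature. Of the 383 features with a mean of 20 or more, 353 had reads in every library, and the highest library exceeded the lowest by a median of 4.93-fold. Counting error alone widens this fold where reads are few. Most of these features had a lower mean than the major Tgfbr2 feature, so they were not compared at equal depth. For the major Tgfbr2 feature this fold was 1.28, and 3 features had a smaller one: Eif4g2, a translation initiation factor gene (1.15), the zinc finger gene Zfp597 (1.26) and Kif5b, a kinesin motor gene (1.28). The minor feature, with 2.83, was exceeded in evenness by 97 features. The order depended on Mb and on the scaling. Without Mb, 51 features were more even than the major Tgfbr2 feature, without Wb 13, without Ma 6 and without Wa 3. With each library's reads taken as a share of its total, the fold was 1.55 and 19 features were more even.

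**Figure D2:**
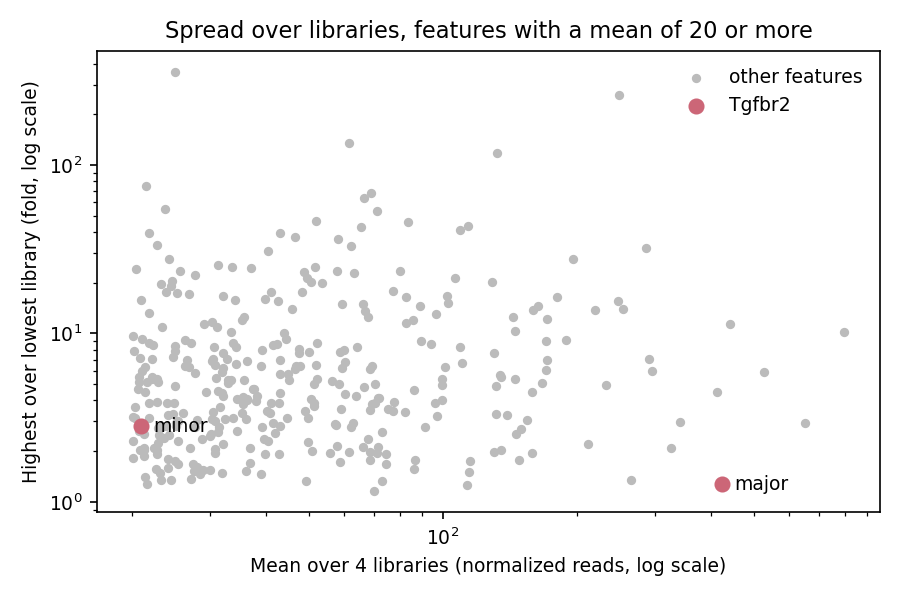
Fold between the highest and the lowest library (y axis, log scale) against the deposited mean over 4 libraries in normalized reads (x axis, log scale), 1 point for each of the 353 features with a mean of 20 or more and reads in every library. The major Tgfbr2 feature sits at the bottom right, at a mean of 424.1 and a fold of 1.28, against a median fold of 4.93.

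Library Mb was where most strong features fell away and the major Tgfbr2 feature did not. Of the 50 features with the highest means, 42 had their lowest level in Mb, and in 38 Mb was under 50% of the mean of the other libraries. The median over the 50 was 20.4%. The major Tgfbr2 feature stood at 94.6% of the other libraries' mean in Mb and the minor feature at 45.6%. The major feature ranked 4 in Mb, 5 in Wb, 7 in Ma and 11 in Wa, and the minor feature ranked 742 in Mb, 242 in Wb, 381 in Ma and 349 in Wa. As a share of all reads in listed features, the major feature took 1.27% in Mb (95% Wilson interval 1.10 to 1.46), 1.29% in Wb (1.18 to 1.41), 1.17% in Ma (1.04 to 1.31) and 0.834% in Wa (0.791 to 0.880). On that scale Wa was the library that stood lower. Counted by gene, Tgfbr2 ranked 4 by the highest feature and 3 by the sum over features.

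The features next to Tgfbr2 by mean showed how differently the libraries fed other strong features. Levels of different genes are reads per feature and not per length, since feature lengths were not used here. Just above it were 2 features of Dnajb9, a chaperone gene of the endoplasmic reticulum (means 650.6 and 527.7), and Elovl5, a fatty acid elongase gene (442.5). Below it were Zfp84, a zinc finger gene (414.0), and Laptm4a, a lysosomal membrane protein gene (325.2). Elovl5 held 800.0 (Wa), 327.9 (Wb), 571.4 (Ma) and 70.7 (Mb) normalized reads. Zfp84 held 358.4, 611.6, 548.7 and 137.1 in the same order. The Tgfbr2 level overlapped the range of each of these features, so its exact place among them does not exceed the spread over libraries. Around the minor feature the neighbours were Stat3, Snx8 and Fubp1 above (means 21.1 to 21.0) and Lonrf1 and Tnks1bp1 below (20.9 and 20.8). Tnks1bp1 held 57.5 normalized reads in Mb and at most 9.51 in the other libraries, while Lonrf1 had 0 in Mb.

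The features most like the major Tgfbr2 feature in their pattern over the 4 libraries were at Rfx5, Otud7b, Zfp597 and Eif4g2. Likeness was the Euclidean distance of log2 (normalized reads + 0.5), centred on each feature's own mean, over features of other genes with a mean at or above that of the minor feature. Rfx5, a regulator of MHC class II genes, was closest, at a distance of 0.18, with 23.1 (Wa), 32.2 (Wb), 35.6 (Ma) and 28.7 (Mb) normalized reads. Otud7b, a deubiquitinase gene, followed at 0.25, Zfp597 at 0.31 and Eif4g2 at 0.33. With 4 libraries, likeness describes these levels and nothing further.

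Among the other receptors, Acvr1b, a type I activin receptor gene, was the single further member of 13 looked for that was listed. Mb gave 8 of its 10 reads and Wa the other 2. In the authors' deposited table its value was 2.72 on the log2 scale, with a standard error of 1.47 and an unadjusted p of 0.0655. Tgfbr1, which encodes the type I partner of Tgfbr2, was not among the features analysed here. Of the receptors listed, Tgfbr2 had the higher mean of Ago2 reads.

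Of the SMADs, Smad5, a signal transducer mainly of bone morphogenetic protein receptors, was the member listed of 7. Its level was near that of the major Tgfbr2 feature in Wa, below it in Wb and Ma, and far below it in Mb: it held 346.5 (Wa), 297.5 (Wb) and 327.0 (Ma) normalized reads, against 22.1 (10 reads) in Mb. In the authors' deposited table mutant over wild type was -0.76 on the log2 scale, with an unadjusted p of 0.472; Ma lay between the wild-type libraries and Mb far below them.

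Of 5 measured ligand and activation genes, Thbs1, whose product thrombospondin can release TGF-beta from its latent form, had the highest mean. Its 78 reads all lay in Mb, 172.4 normalized reads there, and its unadjusted p in the authors' deposited table was 0.0392. Furin, a protease that cuts the TGF-beta precursor, ranged at its higher feature from 6.47 normalized reads in Ma to 28.7 in Mb. Itgav, Lrrc32 and Gdf11 had means of 4.50 or lower.

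Inhibitors of the pathway were the fullest class, with 9 of 14 genes and 17 features. None passed an adjusted p of 0.05. By the authors' deposited table, 6 features had an unadjusted p under 0.05, 5 of them higher in the mutant and 1 lower, against 8.48% of all features, of which 193 of 216 were higher. The lower one was Pmepa1, a membrane protein gene that TGF-beta induces and that holds SMADs back, with 108.2 (Wa), 32.2 (Wb), 16.2 (Ma) and 15.5 (Mb) normalized reads. The authors' deposited table put this at -1.95 on the log2 scale, with a standard error of 0.88 and an unadjusted p of 0.0259. The other Pmepa1 feature held 4.86 in Ma and 33.2 in Mb and so did not repeat that order. The 5 higher ones belonged to Ski (2 features), Skil, Smad7 and Smurf1, with between 8 and 17 reads in Mb. Those of Ski, Smad7 and Smurf1 had at most 1 read in Ma, while the Skil feature held 6.47 normalized reads in Ma and 22.1 in Mb, both above its 0.544 in Wa and 0.921 in Wb. Skil, a corepressor of SMADs, was bound at similar levels in Wb, Ma and Mb at its highest feature, with 17.4 (Wa), 35.0 (Wb), 35.6 (Ma) and 35.4 (Mb) normalized reads. Smad7, an inhibitory SMAD, had 1 feature of each kind: 19.3, 28.6, 16.2 and 6.63 normalized reads in Wa, Wb, Ma and Mb at one, and 1.09, 0.921, 0 and 33.2 at the other.

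Transcriptional targets of TGF-beta differed from one another in Mb. Ccn2, the connective tissue growth factor gene, held 42 reads in Mb and 0 in the other libraries. Its unadjusted p in the authors' deposited table was 0.0609. These reads lay in the library whose stromal markers summed to 201.2 normalized reads, and the part of those markers in the result was not tested. The major Tgfbr2 feature showed no such excess in Mb, with 406.8 normalized reads in Mb against 466.1 in Ma. Of the targets with reads in every library, Cdkn1a, a cell cycle inhibitor gene, ranged from 17.7 to 24.0 normalized reads, Id3 from 15.5 to 31.3 and Klf10 from 26.5 to 110.3 at its higher feature. Of the positive regulators, Tab2 and Trim33 were measured. The minor feature of Trim33 had 9 reads from Wa and 16 from Wb but 0 from either mutant library. Its unadjusted p in the authors' deposited table was 0.0477. The stronger Trim33 feature did not repeat that order, with 55 reads from Wa, 0 from Wb, 5 from Ma and 2 from Mb. Its unadjusted p in the authors' deposited table was 0.884.

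**Figure D3:**
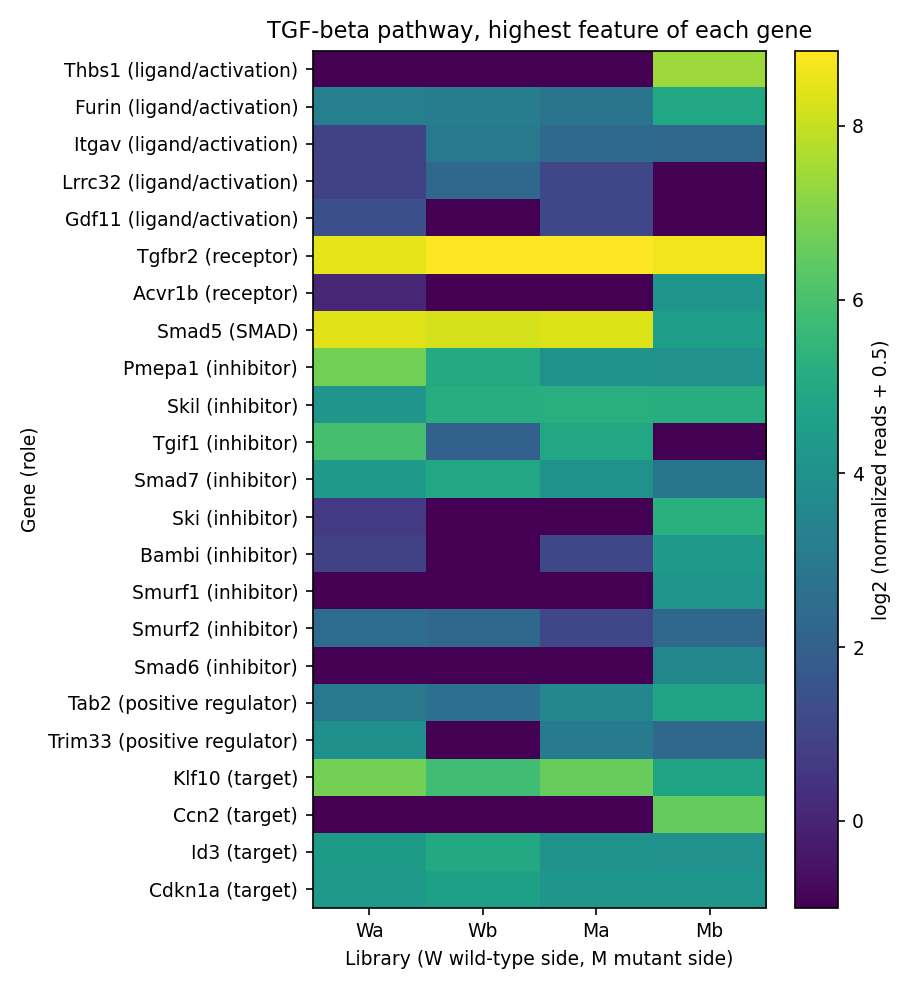
Ago2 reads at the highest feature of TGF-beta pathway genes (rows, with role) in the 4 libraries (columns), as log2 (normalized reads + 0.5), darkest for no reads. Tgfbr2 is bright in all 4 libraries, Smad5 in Wa, Wb and Ma, and Thbs1 and Ccn2 in Mb only.

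Over the whole TGF-beta list, 24 of 74 genes were measured, with 38 features. Of the 24, counted at the highest feature, 13 were higher in the mutant by deposited value and 11 lower, with a median log2 fold change of 0.11 against -0.07 over all features. No feature passed an adjusted p of 0.05. At an unadjusted p under 0.05 stood 9 of the 38, against 8.48% of all features, and 7 of the 9 were higher in the mutant, against 193 of 216 over the table. In the authors' deposited table the count was 0 in Tgfbr2's class of receptors and in the SMADs, and among ligand and activation genes and positive regulators 1 each. With voom on the recovered reads the count over the list was 1, against 75 higher and 4 lower of all 2548 features. The list's median log2 fold change by voom was 0.59, against 0.05 over all features. Leaving out a library leaves 1 on a side, so medians alone are given. They were 0.70 without Wa (0.15 over all features), 0.45 without Wb (-0.016), 0.56 without Ma (0.08) and 0.21 without Mb (0.07). These medians were not tested.

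Tgfbr2 had the highest mean of Ago2 reads at a feature among the known miR-17 cluster targets that were looked for. The reads take no account of feature length or RNA level. Of 59 genes on that list, 38 were measured with 69 features, Tgfbr2 included, and by highest feature Tgfbr2 ranked 1, followed by Tsg101, Socs1, Mylip and Bcl2l11. Tsg101, an endosomal sorting gene, held 182.3 (Wa), 272.7 (Wb), 161.9 (Ma) and 19.9 (Mb) normalized reads. Socs1, a feedback inhibitor of cytokine signalling, held 311.7, 70.0, 118.2 and 15.5 in the same order, and Mylip, a ubiquitin ligase gene for the LDL receptor, 183.4, 84.7, 147.3 and 22.1. All 3 were lowest in Mb, where Tgfbr2 was not. Bcl2l11, which encodes Bim and carries the mutation, held 49.7 (Wa), 168.6 (Wb), 14.6 (Ma) and 97.3 (Mb) normalized reads at its highest feature, with neither group apart from the other. Of its 8 features, 4 had both mutant libraries below both wild-type libraries, an order that held in 20.1% of all features. The strongest of these 4 held 25 reads from Wa, 20 from Wb, 1 from Ma and 0 from Mb. Its unadjusted p in the authors' deposited table was 0.0494. The next held 53, 11, 1 and 0, with an unadjusted p of 0.0429 in the authors' deposited table. The other 2 of the 4 had 2 reads each in Ma and 0 in Mb.

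The spread over libraries was small at Tgfbr2 among these targets, though not there alone. Of the 18 with a mean of 20 or more, Tgfbr2 included, none had a smaller fold between the highest and the lowest library than Tgfbr2. Thbs1, Pkd2 and Ccn2 are among the 18 but had 0 reads in at least 1 library, so their fold could not be compared. E2f1, a transcription factor gene of the cell cycle, had 1.67. Tgfbr2 also had the highest mean of these targets, where counting error widens the fold least. Cdkn1a, whose mean of 19.8 lay just under that limit, had 1.35, and by share of reads its fold was 1.50 against 1.55 for Tgfbr2. Of the 38 genes, 18 were higher in the mutant by deposited value and 20 lower, with a median log2 fold change of -0.20 against -0.07 over all features. No feature passed an adjusted p of 0.05. In the authors' deposited table, 7 of 69 had an unadjusted p under 0.05, against 8.48% of all features. Of the 7, 2 were higher in the mutant (Pkd2 and Thbs1) and 5 lower, at Jak1, Socs3, Rb1 and both Bcl2l11 features just given; over all features 193 of 216 were higher. Voom on the recovered reads gave 1, against 75 higher and 4 lower of all 2548 features. The median log2 fold change of the targets by voom was -0.40, against 0.05 over all features. Leaving out a library leaves 1 on a side, so medians alone are given. They were -0.45 without Wa (0.15 over all features), -0.37 without Wb (-0.016), -0.05 without Ma (0.08) and -0.40 without Mb (0.07). These medians were not tested. Pkd2, which encodes polycystin 2 and was singled out after its values were seen, had the smallest p of the table, with 76 of its reads in Mb, 1 in Wa and 1 in Ma; its adjusted p after Benjamini-Hochberg adjustment was 0.165. Of the listed targets, 4 are also on the TGF-beta list: Tgfbr2, Thbs1, Ccn2 and Cdkn1a. Of these, Thbs1 and Ccn2 were read in Mb alone, while Tgfbr2, at its major feature, and Cdkn1a were read at similar levels in all 4 libraries.

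**Figure D4:**
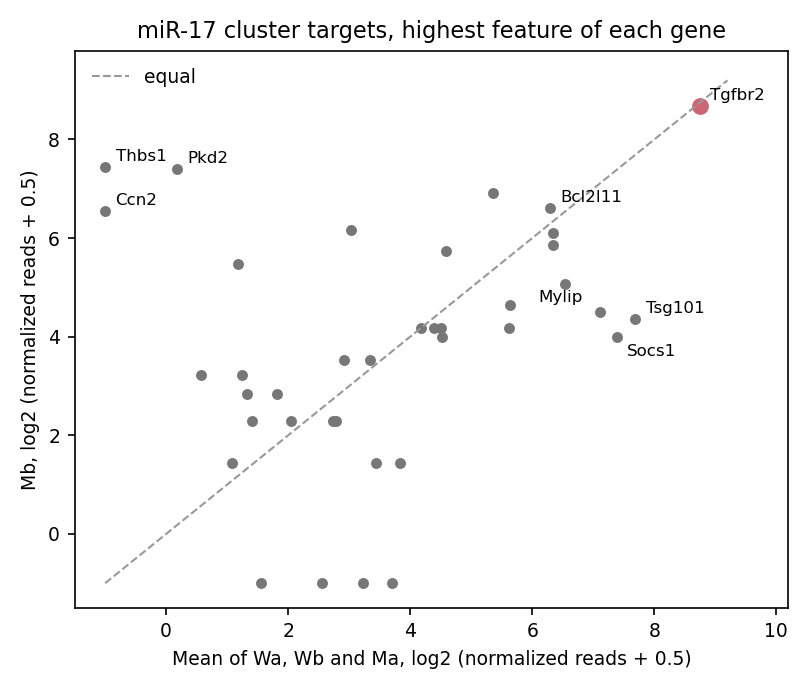
Level in Mb (y axis) against the mean of Wa, Wb and Ma (x axis), both as log2 (normalized reads + 0.5), for the highest feature of each of the 38 measured miR-17 cluster targets; the dashed line marks equal levels. Tgfbr2, in red, is the highest point and lies close to the line, Tsg101, Socs1 and Mylip lie below it, and Thbs1, Ccn2 and Pkd2 far above it.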

How the data were processed

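The submitters' processing notes name the tools CASAVA (1.8.2), BWA (0.7.12-r1039) and DESeq2 and the builds mm9 and NCBIM37. How features were defined and counted, and whether PCR copies were removed, is not stated there. Per the file headers, the deposited table holds a mean of size-factor-normalized reads over all libraries (a signal), a log2 fold change and a p-value, from the authors' fit; its direction, mutant over wild type, was read from the table's name. Standard errors were derived as log2 fold change over the normal quantile of p.

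Each mean is a sum of whole reads weighted by 4 size factors. The weights were found from the lowest means, and all 2548 features had exactly 1 whole-read solution (largest misfit 6.82e-13). Of 100 slightly shifted values, 3 had a solution for the major Tgfbr2 feature and 0 for the minor. The pair of libraries taken as mutant gave the sign of 98.8% of deposited log2 fold changes. This mapping is to a side of the comparison, not to a labelled sample, and a wrong label in the authors' comparison would carry over.

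Alternatives used limma 3.58.1 (voom, R 4.3.3), tested on simulated data. The simulation gave every library the same spread, so it does not cover a library set apart as Mb was. Symbols came from RefSeq (GRCm38.p6; 2540 features matched). Genes named were all Tgfbr2 features, 3 neighbours by mean on each side, the 5 most alike, measured TGF-beta genes and the highest of the miR-17 targets. Members and lists were chosen with earlier results of these data known. A few of the genes so chosen are left out of the text and figures.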

Additional observations from a re-analysis of the deposited data

How the results depend on the processing

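Both Tgfbr2 features stayed above an adjusted p of 0.05 under every alternative tried, with adjusted p from 0.978 to 1.00 for the major feature and from 0.527 to 1.00 for the minor in the authors' table or limma's voom. The log2 fold change of the major feature changed sign with voom scaled by TMM, to -0.12, and without Wa; leaving out each library gave -0.081 to 0.26. For the minor feature leaving out each library gave -1.14 to -0.53. Scaling by TMM moved the median over all features by -0.20 and scaling by total reads by 0.13. Leaving out each library gave 0 to 356 features at an adjusted p of 0.05, the 356 without Ma, when Mb alone stood for the mutant; the cause was not tested. The major feature's rank was 11 in Wa alone and 4 to 6 without each library; the minor's was 742 in Mb alone and 327 to 438 without each library. As a share of all reads, the major feature's level relative to the 4-library mean moved from 0.86 to 0.73 in Wa and from 0.96 to 1.11 in Mb. Alternatives chosen after seeing the data gave 19 features more even than the major feature by share of reads, and 3 to 51 without each library. With voom they gave 1 feature of the TGF-beta list at an unadjusted p under 0.05 and 2 to 17 without each library, and for miR-17 targets 1 and 1 to 12.

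No paired analysis was possible because the deposited table carries no replicate numbers. The planned quasi-likelihood count test was not run, and voom was fitted to the recovered reads in its place. The depth of Mb, in which 3 reads equal 6.63 normalized reads, limits what can be said of the minor feature.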
